A study of Homo sapiens with 8 samples.

Results

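The keratins of simple epithelia KRT7, KRT8, KRT18, KRT19 and KRT80 were followed in bulk RNA sequencing of DU145 and PC3, 2 established lines of human prostate cancer. The members were the 5 rows of the deposited gene table that carry these symbols, of 57905 rows in all, and all 5 passed the filter of a mean of at least 1 TPM (a transcript level scaled to gene length and to the same total in every library) in some group. The 8 libraries form 4 groups of 2: DU145 with a lentivirus for TRIB1 overexpression, DU145 with a blank lentivirus as its control, PC3 with the TRIB1 lentivirus, and PC3 with the blank lentivirus. Every group therefore carries a lentivirus, and each line stands for a single established tumour line. DU145 and PC3 are both grown from metastases. No label states that the 2 libraries of a group came from separate cultures, and a p-value here rests on library-to-library spread alone, part or all of which may be technical.

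Keratins are intermediate filament proteins that form filaments only as pairs of a type I and a type II chain. KRT8 and KRT18 are the basic pair of simple, single-layered epithelia, with KRT7 (type II) and KRT19 (type I) added in ductal and glandular cells, and in the prostate KRT8 and KRT18 mark luminal cells. KRT80 is a type II keratin known from many epithelia, where it lies near desmosomes and the cell edge. VIM encodes vimentin, the intermediate filament protein of mesenchymal cells, which many cultured carcinoma lines also make.

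The coding sequences show how far reads of one member could be taken for another. KRT7 and KRT8 were 70.3% identical over their aligned coding bases, KRT8 and KRT80 were 58.0% identical, and KRT18 and KRT19 were 58.4% identical. Pairs of a type I and a type II gene were 44.4% to 48.1% identical. A stretch of 60 coding bases is shown for the type I genes KRT18 and KRT19, taken where the aligned keratins are most alike, to show how much of a well conserved stretch tells their reads apart. It encodes the start of the helix termination motif, a conserved stretch at the end of the keratin rod, and capitals mark the 43 bases that both genes share. Sequences are from GENCODE 29 transcripts (GRCh38), 5′ to 3′ on the coding strand.
KRT18, chr12:52952251-52952310, plus strand, exon 6 of 7: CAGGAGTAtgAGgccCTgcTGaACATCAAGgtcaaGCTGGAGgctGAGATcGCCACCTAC
KRT19, chr17:41523806-41523865, minus strand, exon 6 of 6: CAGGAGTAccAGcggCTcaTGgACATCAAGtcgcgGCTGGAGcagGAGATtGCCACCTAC
KRT18 and KRT19 differed at 17 of these 60 bases. The longest run of identical bases was 65 between the KRT8 and KRT80 coding sequences and 41 between KRT7 and KRT8. Read length and the handling of reads with several matches were not given in the sources used here, and the sharing of reads between members was not tested.

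The targeted gene followed the labels. TRIB1 had 69.4 and 62.3 TPM in DU145 TRIB1 libraries, against 10.1 and 7.94 TPM in DU145 control libraries, and 241 and 245 TPM in PC3 TRIB1 libraries, against 45.1 and 50.8 TPM in PC3 control libraries. Epithelial markers (6 of 6 with at least 1 TPM in a group) summed to 812.7 to 834 TPM in PC3 TRIB1 and 389.6 to 409.8 TPM in PC3 control libraries, and to 89.3 to 95.8 TPM in DU145 TRIB1 and 95.8 to 96.6 TPM in DU145 control libraries. By limma 5 of the 6 rose in PC3, where 7.67% of all genes tested did. CLDN3 went the other way without passing, at 24.9 and 25.1 TPM in PC3 TRIB1 and 28.6 and 30.0 TPM in PC3 control libraries. In DU145 1 of the 6 passed, and it was lower, where 2.01% of all genes tested fell. Markers of fibroblasts (8 genes, 3 of them under 1 TPM in every library) summed to 42.7 to 46.7 TPM in PC3 TRIB1 and 60.1 to 71.5 TPM in PC3 control libraries. COL1A1 made up most of these sums and fell in PC3 by 0.71 on the log2 scale (limma adjusted p = 0.0114), while LUM, at 3.597 and 2.93 TPM in PC3 TRIB1 and 0.456 and 1.26 TPM in PC3 control libraries, was higher by 1.23 (adjusted p = 0.0315), having passed the filter through the PC3 TRIB1 libraries alone. The other 2 genes tested did not pass. Leukocyte markers summed to 4.43 to 5.19 TPM in PC3 TRIB1 and 3.11 to 3.57 TPM in PC3 control libraries, and endothelial markers to 2.43 to 3.02 TPM in PC3 TRIB1 and 3.09 to 3.56 TPM in PC3 control libraries. The part of these lists in the keratin results was not tested. Of 4 basal markers KRT5, KRT14 and TP63 were under 1 TPM in all 8 libraries, while KRT15 had 37.4 and 36.4 TPM in PC3 TRIB1, 19.2 and 12.4 TPM in PC3 control and 5.11 to 6.28 TPM in DU145 libraries (log2 change in PC3 1.204, limma adjusted p = 0.0146). The luminal marker KLK3 was at 0 in 7 of the 8. CTNNA1, known to be lost in PC3, was lower but not at 0 there, with 60.4 to 91.3 TPM in the 4 PC3 libraries and 199 to 279.7 TPM in the 4 DU145 libraries. The second DU145 TRIB1 library stood apart from the others on the second principal component, at -61.7 against -4.89 to 24.9, and 3.17% of its TPM came from the 7SL RNA genes RN7SL1 and RN7SL2, against 1.27% to 2.24% elsewhere. Leaving it out changed no DU145 call of the 5 keratins. These are cell lines in bulk, so fewer cells that make a keratin and less of its RNA per cell cannot be told apart.

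In PC3, TRIB1 libraries held more KRT7, KRT8, KRT18 and KRT80 RNA than control libraries, by 1.53-fold to 2.92-fold. In DU145 none of the 5 keratins passed the test, and the point estimates were all within 0.13 of no change on the log2 scale. The difference between the lines was itself past the test for KRT7, KRT8 and KRT18. Fold changes, here and throughout, are on the log2(TPM + 1) scale, and adjusted p-values come from limma with Benjamini-Hochberg adjustment over all 25982 genes tested.

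**Figure D1:**
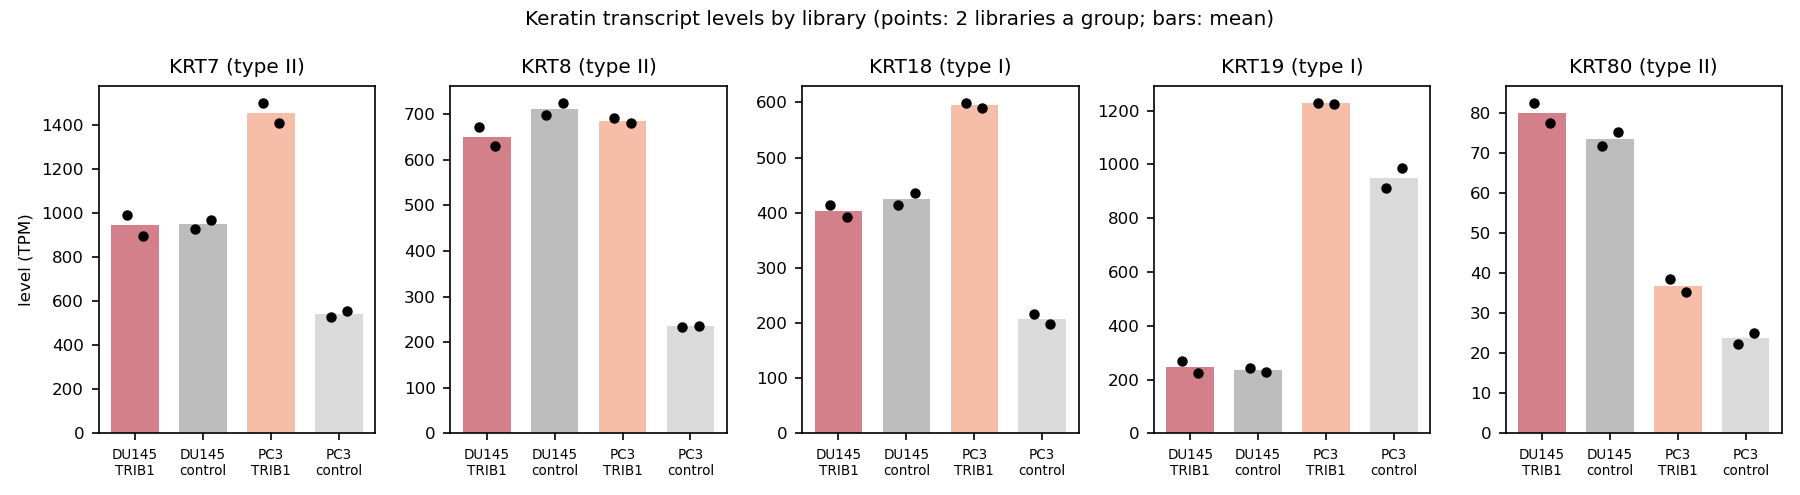
Level in TPM of each of the 5 keratins in DU145 TRIB1, DU145 control, PC3 TRIB1 and PC3 control libraries, with a point for each of the 2 libraries of a group and a bar at their mean. KRT7, KRT8, KRT18 and KRT80 are higher in PC3 TRIB1 than in PC3 control libraries by the test, and KRT19 missed the threshold (limma adjusted p = 0.0509). In DU145 the groups lie close together.

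KRT8 is the type II chain that pairs with KRT18 in simple epithelia. It had 691 and 679.8 TPM in PC3 TRIB1 libraries, against 233 and 236 TPM in PC3 control libraries. KRT8 rose 2.92-fold in PC3 (log2 change 1.54, SE 0.05; limma adjusted p = 0.000725). In DU145 it had 671 and 630.03 TPM in TRIB1 libraries, against 698 and 725 TPM in control libraries. Both DU145 TRIB1 libraries were thus the lower ones, but the log2 change of -0.13 (95% interval -0.25 to -0.01) did not pass after adjustment (unadjusted p = 0.0387, limma adjusted p = 0.249).

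KRT18 is the type I partner of KRT8, and its change in PC3 was close to that of KRT8. Over all 8 libraries its centred log2(TPM + 1) values lay nearer to KRT7 (root mean square difference 0.097) than to KRT8 (0.267). It had 599.8 and 590.5 TPM in PC3 TRIB1 libraries, against 216 and 199 TPM in PC3 control libraries. KRT18 rose 2.86-fold in PC3 (log2 change 1.52, SE 0.06; limma adjusted p = 0.000734). In DU145 it had 414 and 392 TPM in TRIB1 libraries, against 413 and 436 TPM in control libraries, and these values overlapped (log2 change -0.08, 95% interval -0.22 to 0.07, limma adjusted p = 0.58).

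KRT7, a type II keratin of ductal and glandular epithelia, was the most abundant of the 5 in the PC3 TRIB1 libraries. It had 1502 and 1411 TPM there, against 527 and 554 TPM in PC3 control libraries. KRT7 rose 2.69-fold in PC3 (log2 change 1.43, SE 0.07; limma adjusted p = 0.000865). In DU145 it had 994 and 894 TPM in TRIB1 libraries, against 929 and 969 TPM in control libraries, so that both control values lay between the TRIB1 values (log2 change -0.01, 95% interval -0.18 to 0.16, limma adjusted p = 1).

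KRT80 was the least abundant of the 5 in every library. It had 38.4 and 35.3 TPM in PC3 TRIB1 libraries, against 22.3 and 25.2 TPM in PC3 control libraries. KRT80 rose 1.53-fold in PC3 (log2 change 0.62, SE 0.09; limma adjusted p = 0.00836). Without the first PC3 TRIB1 library the log2 change was 0.56 and no longer passed (limma adjusted p = 0.0504). In DU145 it had 82.6 and 77.4 TPM in TRIB1 libraries, against 71.7 and 75.3 TPM in control libraries. That change did not pass the test (log2 change 0.12, 95% interval -0.09 to 0.33, limma adjusted p = 0.524).

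KRT19 is the smallest keratin and lacks most of the tail that other keratins carry. It had 1230.5 and 1224 TPM in PC3 TRIB1 libraries, against 911 and 988 TPM in PC3 control libraries. The 1.29-fold difference (log2 change 0.37, 95% interval 0.13 to 0.61) missed the threshold (limma adjusted p = 0.0509). It passed at a filter of 5 TPM (adjusted p = 0.0342), with median-of-ratios scaling (adjusted p = 0.0359), with only the PC3 groups fitted (adjusted p = 0.0455) and when the first or the second DU145 TRIB1 library was left out (adjusted p = 0.0255 and 0.0247). In DU145 it had 269 and 223 TPM in TRIB1 libraries, against 241 and 229 TPM in control libraries, and the control values lay between the TRIB1 values (log2 change 0.06, 95% interval -0.18 to 0.30, limma adjusted p = 0.82).

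Counted over the members, 4 of 5 were higher with TRIB1 in PC3, where 7.67% of all genes tested were, and 3 of 5 were also over a log2 change of 1, where 2.52% were. The median log2 change of the members was 1.43 in PC3, against -0.01 over all genes tested. In DU145, 0 of 5 passed by limma, where 2.72% of all genes passed in either direction, and 1 of 5, KRT8, had an unadjusted p under 0.05. The median there was -0.01 for the members and -0.04 over all genes.

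**Figure D2:**
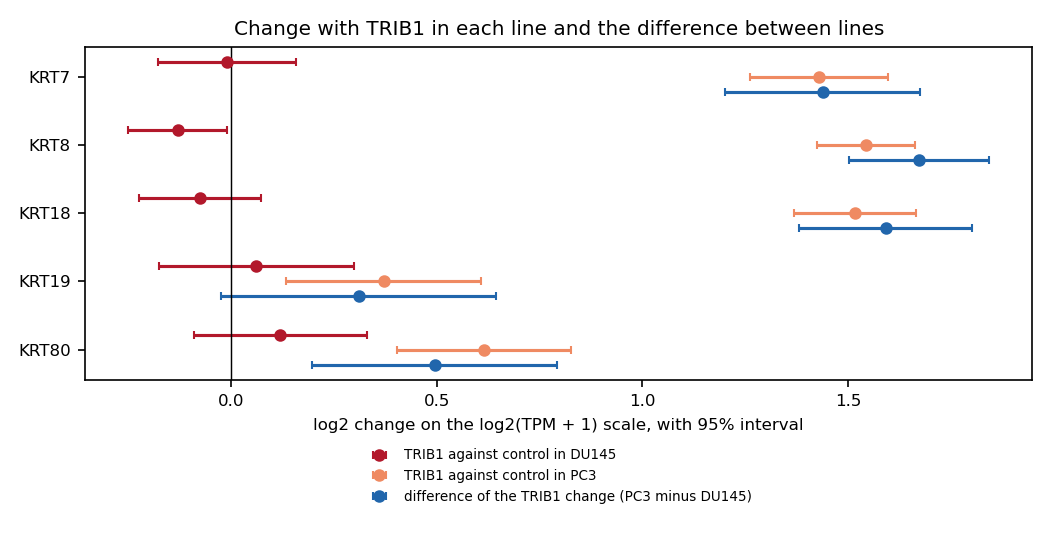
Log2 change of TRIB1 over control libraries in DU145 and in PC3, and the PC3 change minus the DU145 change, for each keratin, on the log2(TPM + 1) scale with 95% intervals from limma. The PC3 changes of KRT7, KRT8 and KRT18 lie between 1.43 and 1.54, those of KRT80 and KRT19 at 0.62 and 0.37, and the DU145 changes within 0.13 of 0.

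The change in PC3 was set against the change in DU145 in the same fit. The PC3 change exceeded the DU145 change by 1.67 on the log2 scale for KRT8 (95% interval 1.504 to 1.84, limma adjusted p = 0.00132), by 1.59 for KRT18 (1.38 to 1.80, limma adjusted p = 0.00192) and by 1.44 for KRT7 (1.202 to 1.67, limma adjusted p = 0.00278). So 3 of 5 members had a higher change in PC3, where 5.36% of all genes tested did. The difference was 0.50 for KRT80 (95% interval 0.20 to 0.79, limma adjusted p = 0.0613) and 0.31 for KRT19 (-0.03 to 0.65, limma adjusted p = 0.224), and neither passed. At a filter of 5 TPM the KRT80 difference passed (limma adjusted p = 0.0444).

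The lines also differed in these keratins without the TRIB1 virus, in libraries that themselves differed in TRIB1, with the levels given above (log2 change 2.30, limma adjusted p = 5.01e-05). In control libraries 4 of 5 members were lower in PC3 than in DU145, where 28.4% of all genes tested were lower. KRT8 was lower by a log2 change of -1.60 (limma adjusted p = 8.78e-06), KRT80 by -1.59 (adjusted p = 5.22e-05), KRT18 by -1.03 (adjusted p = 7.02e-05) and KRT7 by -0.81 (adjusted p = 0.000258). KRT19 went the other way, with 950 ± 54 TPM in PC3 control and 235 ± 9.2 TPM in DU145 control libraries (SD, n = 2 each; log2 change 2.01, limma adjusted p = 3.52e-05), where 18.6% of all genes were higher. The median over all genes in this comparison was -0.18, and median-of-ratios scaling, which brings it to 0, left the KRT7 change at -0.58 and the KRT19 change at 2.24, both still past the test.

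Between the TRIB1 groups the order was different. KRT7 was higher in PC3 TRIB1 than in DU145 TRIB1 libraries by a log2 change of 0.63 (limma adjusted p = 0.000651), KRT18 by 0.56 (adjusted p = 0.000632) and KRT19 by 2.32 (adjusted p = 1.97e-05), so 3 of 5 were higher, where 20.8% of all genes were. KRT80 was lower by -1.098 (limma adjusted p = 0.000183), where 29.0% of all genes were lower. KRT8 differed by 0.08 (95% interval -0.04 to 0.20, limma adjusted p = 0.249), a call that depends on the scaling, since with median-of-ratios scaling it was 0.29 (adjusted p = 0.00361). These comparisons share libraries with those of TRIB1 against control.

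Levels between genes are given per length, in TPM. In all 4 DU145 libraries the order was KRT7, KRT8, KRT18, KRT19, KRT80, from high to low. In the PC3 TRIB1 libraries it was KRT7, KRT19, KRT8, KRT18, KRT80, and in the PC3 control libraries KRT19 came before KRT7. KRT8 and KRT18 were nearest neighbours in PC3 control libraries, at 234 ± 2.6 and 208 ± 12 TPM (SD, n = 2 each). The gene length behind each value was not given in the sources used here. The table names a single transcript per gene, which for KRT7 is a noncoding one of 629 bases. The place of KRT7 in this order is thus less sure than its change between libraries. The same holds for the sums, shares and ratios below that include KRT7.

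The makeup of the 5 keratins differed by line and, in PC3, by TRIB1. Together they summed to 4062 and 3941 TPM in PC3 TRIB1 libraries, against 1909 and 2002 TPM in PC3 control libraries, and to 2431 and 2217 TPM in DU145 TRIB1 libraries, against 2354 and 2434 TPM in DU145 control libraries. KRT19 made up 30.3% and 31.1% of that sum in PC3 TRIB1 libraries, against 47.7% and 49.4% in PC3 control libraries, while it was 9.39% to 11.1% in the 4 DU145 libraries. With 2 libraries against 2 no exact permutation test can reach 0.05, so no test is given for sums, shares and ratios.

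**Figure D3:**
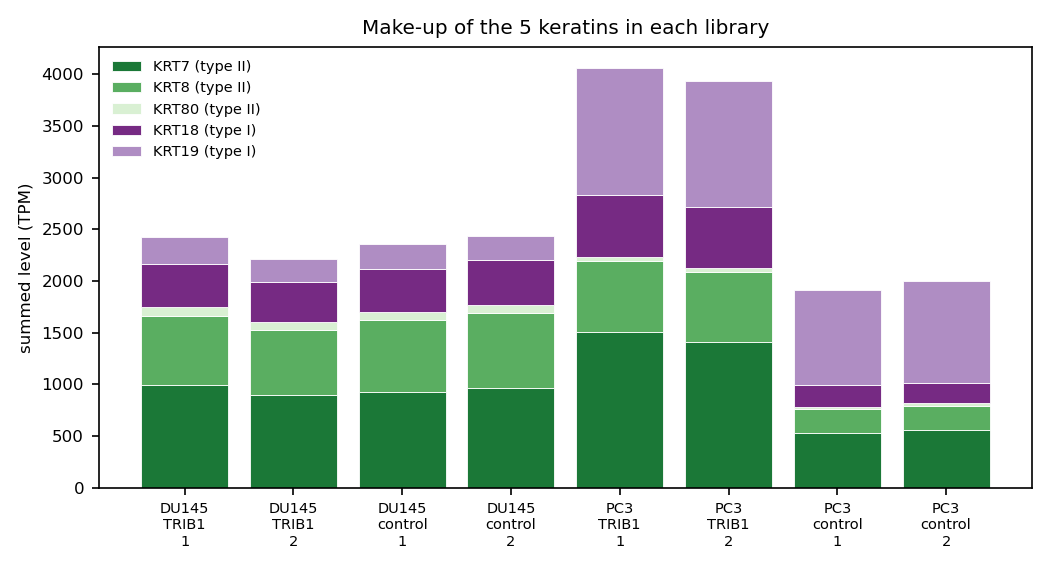
Stacked level in TPM of the 5 keratins in each of the 8 libraries, type II genes in green and type I genes in purple. The bars of the PC3 TRIB1 libraries reach 4062 and 3941 TPM, the other 6 lie between 1909 and 2434 TPM, and KRT19 takes the largest part of the PC3 control bars.

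Because keratins assemble as pairs of a type I and a type II chain, RNA ratios of the 2 types within a library are given. They are free of library scaling but depend on the gene lengths behind TPM. The balance of the proteins was not measured. KRT8 to KRT18 was 1.15 and 1.15 in PC3 TRIB1 libraries, against 1.08 and 1.19 in PC3 control libraries, and 1.62 and 1.61 in DU145 TRIB1 libraries, against 1.69 and 1.67 in DU145 control libraries. The 2 genes of this pair thus kept nearly the same ratio within PC3 while both levels differed 2.86-fold to 2.92-fold. The ratio of all 3 type II to both type I members was 1.22 and 1.17 in PC3 TRIB1 libraries, against 0.693 and 0.687 in PC3 control libraries, and 2.56 to 2.66 in the DU145 libraries. Over the 30 type I and 26 type II keratin genes of the table the ratio was 3.22 and 3.14 in PC3 TRIB1 and 2.92 and 3.21 in PC3 control libraries. KRT81, a type II hair keratin named after its values were seen, made up 48.4% and 48.5% of all keratin TPM in PC3 TRIB1 libraries, against 57.3% and 60.2% in PC3 control libraries. KRT81 had 3990 and 3892 TPM in PC3 TRIB1 libraries, against 2674 and 3146 TPM in PC3 control libraries, and 6.20 to 8.24 TPM in DU145. It is a close paralog of KRT86, so reads may be split between them.

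VIM moved the other way from the members in PC3. It had 122 and 119 TPM in PC3 TRIB1 libraries, against 647 and 589 TPM in PC3 control libraries, and fell by 2.35 on the log2 scale (limma adjusted p = 0.000725). In DU145 it had 577 and 543 TPM in TRIB1 libraries, against 414 and 430 TPM in control libraries, and rose by 0.41 (limma adjusted p = 0.0369), a call lost without any 1 of the 4 DU145 or the 2 PC3 TRIB1 libraries (adjusted p 0.0364 to 0.167 over all libraries left out). The sum of the 5 members over VIM was 33.2 and 33.2 in PC3 TRIB1 libraries, against 2.95 and 3.40 in PC3 control libraries. In DU145 it was 4.22 and 4.08 in TRIB1 libraries, against 5.68 and 5.66 in control libraries.

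**Figure D4:**
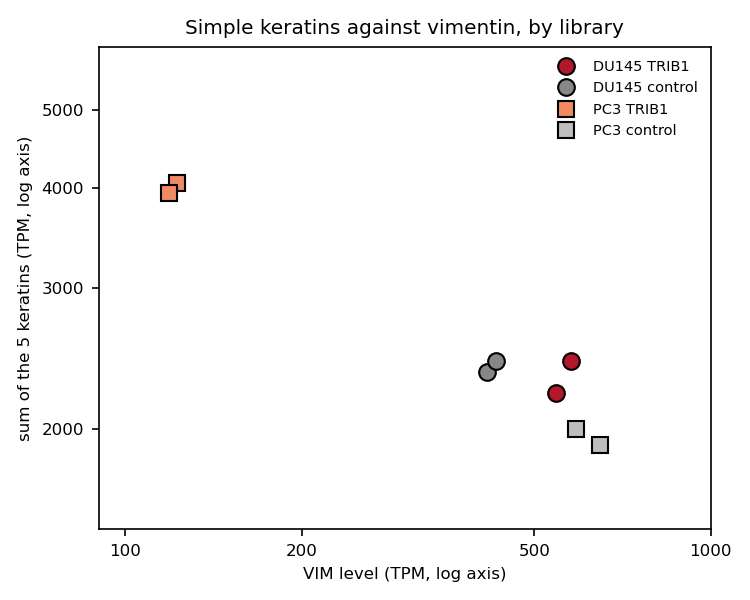
Sum of the 5 keratins against VIM, both in TPM on log axes, with a point for each library. The PC3 TRIB1 libraries stand alone at 119 to 122 TPM of VIM and 3941 to 4062 TPM of keratin, and the other 6 lie between 414 and 647 TPM of VIM.

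Several other keratins were also higher with TRIB1 in PC3. Of 61 rows, picked by symbol and holding some pseudogenes, 14 were tested, and the rest had a mean under 1 TPM in every group. The pseudogene KRT121P is among the 14, with 7.67 and 7.92 TPM in PC3 TRIB1 and 4.42 and 3.94 TPM in PC3 control libraries. In PC3, 10 of the 14 rows rose, where 7.67% of all genes tested did, and 6 with only the PC3 groups fitted. The filter admitted KRT34 through the PC3 TRIB1 libraries alone, so the count describes the genes listed and no more. KRT17, a type I keratin of basal and injured epithelium, had 26.6 and 28.2 TPM in PC3 TRIB1 libraries, against 2.60 and 3.05 TPM in PC3 control libraries (log2 change 2.90, limma adjusted p = 0.00095). KRT16, a keratin of stressed epidermis, rose by a log2 change of 1.97 (limma adjusted p = 0.00205), and KRT75, a hair follicle keratin, rose by 1.69 (adjusted p = 0.00285). KRT16 and KRT17 are related type I genes, and sharing of reads between them was not tested. No count is given for DU145 or for the difference between lines, since KRT6A, KRT6B, KRT17, KRT34, KRT37 and KRT75, 6 of the 14, were at 0.374 TPM or less in every DU145 library and entered the test through PC3.

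**Figure D5:**
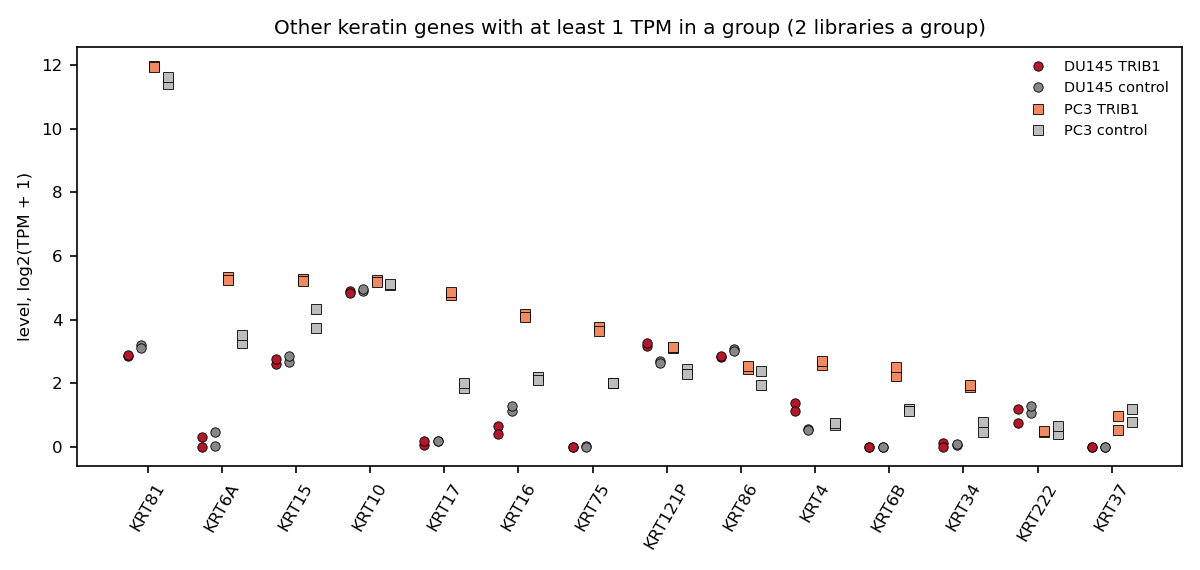
Level of the 14 tested keratin rows outside the 5 members, the pseudogene KRT121P among them, as log2(TPM + 1). Each group has 2 points (DU145 TRIB1, DU145 control, PC3 TRIB1, PC3 control). KRT81 stands far above the others in PC3, and KRT17, KRT16 and KRT75 are higher in PC3 TRIB1 than in PC3 control libraries.

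Of 12 tested genes for other intermediate filament proteins, VIM among them, 7 fell with TRIB1 in PC3 and 5 did not pass, where 9.33% of all genes tested fell, with a median log2 change of -0.43, a count of 3 to 4 without any 1 of the DU145 control or PC3 TRIB1 libraries. NES, the nestin gene of progenitor cells, had 13.5 and 14.3 TPM in PC3 TRIB1 libraries, against 58.1 and 68.6 TPM in PC3 control libraries, and fell by 2.11 on the log2 scale (limma adjusted p = 0.000959). NEFL, a neurofilament gene, fell by 0.62 (limma adjusted p = 0.00725). In DU145 2 of 12 rose, where 0.712% of all genes did. They were VIM and LMNA, a nuclear lamin gene, LMNA by a log2 change of 0.35 (limma adjusted p = 0.0457), and both calls were lost in 9 of 15 alternatives.

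Among 19 genes for proteins that anchor or bind keratin filaments, 5 rose and 3 fell in PC3, where 7.67% of all genes tested rose and 9.33% fell, with a median log2 change of 0.05. DSP, desmoplakin, which ties keratin filaments to desmosomes, had 24.3 and 23.5 TPM in PC3 TRIB1 libraries, against 10.3 and 9.65 TPM in PC3 control libraries (log2 change 1.18, limma adjusted p = 0.00126). JUP, plakoglobin of the desmosome, rose by 1.104 (limma adjusted p = 0.00399), and EPPK1, the keratin-binding epiplakin, rose by 1.33 (adjusted p = 0.00384). PPL, periplakin, and PKP1, plakophilin, made up the 5 that rose, a count of 3 without the first PC3 TRIB1 library. Those that fell were the desmosomal cadherin genes DSG2 and DSC2 and the keratin-binding FBF1, by 0.44 to 0.50 on the log2 scale; these 5 genes were named after their values were seen. Little can be read from the 3 lower, a count that was lost without either PC3 TRIB1 library and was 1 without the second PC3 control library. In DU145 EPPK1 passed, lower by -0.89 (limma adjusted p = 0.0367), a call lost in 9 of 15 alternatives.

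Of 21 tested genes for transcription factors reported to act on these keratin genes or on epithelial state, 7 rose and 1 fell in PC3, where 7.67% of all genes tested rose and 9.33% fell. GRHL3, 1 of the 7, passed the filter through the PC3 TRIB1 libraries alone, and so the count is a description. GRHL2, an epithelial factor of the grainyhead family, had 16.3 and 16.1 TPM in PC3 TRIB1 libraries, against 4.16 and 3.73 TPM in PC3 control libraries (log2 change 1.80, limma adjusted p = 0.00278), and was under 0.3 TPM in DU145. OVOL1, an epithelial zinc finger factor, rose by 1.81 (limma adjusted p = 0.0044, a call lost with a pseudocount of 0.1 TPM), and ETS2, an ETS family factor, rose by 0.74 (adjusted p = 0.00318). The gene that fell was JUN, an AP-1 subunit named after its values were seen. In DU145 3 of 21 fell, where 2.01% of all genes tested fell. EHF, GRHL2, GRHL3, OVOL1 and TWIST1, 5 of the 21, were at 0.991 TPM or less in every DU145 library. They entered the test through PC3 and could hardly fall in DU145, so this count too is a description. ELF3, an ETS factor of epithelia, had 41.8 and 39.2 TPM in DU145 TRIB1 libraries, against 166 and 142 TPM in DU145 control libraries (log2 change -1.90, limma adjusted p = 0.00206). In PC3 ELF3 was 1 of the 7 that rose, by 0.40 (limma adjusted p = 0.0327). Its PC3 change exceeded its DU145 change by 2.30 (limma adjusted p = 0.00192). In DU145 ETS2 was lower by -0.55 (limma adjusted p = 0.0247), a call lost in 6 of 15 alternatives, the replicate block among them. TFAP2A, AP-2 alpha, was lower there by -0.88 (limma adjusted p = 0.0367), a call lost in 10 of 15 alternatives, median-of-ratios scaling and the replicate block among them. Without any 1 of the 2 DU145 TRIB1 or the 2 PC3 TRIB1 libraries the count was 1.

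Neighbouring and copied genes bear on the members' values. The listed intervals of KRT8 and KRT18 overlap at their edges on opposite strands (chromosome 12, 53290977 to 53343626 and 53342655 to 53346684 as the table lists them, whose build is not stated), and no strand setting is given, so reads there cannot be assigned with certainty. The listed positions are not those of GRCh38, although the processing notes name hg38. In GENCODE 29 the transcript listed for KRT18 lies at 52948871 to 52952900. KRT7-AS, the antisense gene of KRT7 in GENCODE (ENSG00000257671), had 24.5 and 21.4 TPM in PC3 TRIB1 libraries, against 10.4 and 9.56 TPM in PC3 control libraries (log2 change 1.13, limma adjusted p = 0.00271). Without a strand setting its reads cannot be told from those of KRT7. The table holds 50 pseudogenes of KRT8, 67 of KRT18 and 5 of KRT19. KRT8P12, 90.6% identical to KRT8, had 14.3 and 11.3 TPM in PC3 TRIB1 and 14.6 and 14.6 TPM in PC3 control libraries. KRT18P67 and KRT18P5, 90.5% and 91.7% identical to KRT18, were at most 1.54 TPM in any library, a value from DU145. In PC3 libraries they were at 0 to 0.108 TPM and 0.105 to 0.297 TPM. All 3 tested pseudogenes had an unadjusted p over 0.05 in both lines by limma. KRT18P67 and KRT18P5 passed the filter through DU145 and could hardly show a change in PC3, so nothing is read from their result there. The sharing of reads between members and pseudogenes was not tested.

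Genes whose profile over the 8 libraries was most like each member were ranked by the root mean square difference of centred log2(TPM + 1) values, among 10004 genes listed as protein coding outside the keratins. For KRT8 they were JAG2 at 0.08, then ARHGAP8 and STARD4, and for KRT18 they were TBC1D30 at 0.12, CRB3 and DSP. For KRT7 they were STX3 at 0.13, GCH1 and RAB21. For KRT19 they were SNAPC1 at 0.09, TRIB3 and ATF5, and for KRT80 C9orf41 at 0.07, MYO18A and RAB2A. These are descriptions over 8 libraries of 4 groups, so any gene that differs between the groups in like manner comes close.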

How the data were processed

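Per the labels' protocols, TRIzol was used for RNA and an NEB Ultra kit for libraries. HTSeq, edgeR, DESeq and TopHat2 2.0.14 appear in the submitters' processing notes, as does hg38, without a role. The deposited table holds TPM, in which each of the 8 columns sums to 1000000, so depth is unknown and no counting interval is given; 0 columns were left unmapped. From these values limma 3.58.1 in R 4.3.3 (mean-variance trend) was fitted on log2(TPM + 1) over 4 group means, for genes averaging 1 TPM or more in some group. A gene passed at an adjusted p under 0.05; the study's own fold limit, a log2 change of 1, was applied beside it. The members, lists and tests were chosen with earlier results of these data known. From each list at most the 3 genes with the smallest adjusted p were named in each comparison. Coding sequences were aligned with mafft 7.526. The fit was tested on simulated data. Alternatives covered the pseudocount, filter, scaling, replicate block, groups fitted and each library left out. Some items withheld from this work are not reported here.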

Additional observations from a re-analysis of the deposited data

Results flagged for a closer look

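The change with TRIB1 differed between the lines, by a test of the difference itself, in 3 of the 5 keratins and in VIM. The PC3 change minus the DU145 change was 1.67 for KRT8, 1.59 for KRT18 and 1.44 for KRT7 on the log2 scale, and -2.75 for VIM (limma adjusted p = 0.000834 for VIM). The groups hold 2 libraries each, too few to test whether a library stands apart from its own group.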

How the results depend on the processing

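The counts of members passing kept within 3 to 5 in PC3, 0 in DU145, 3 to 4 for the difference, 5 for control PC3 against control DU145 and 4 to 5 for TRIB1 PC3 against TRIB1 DU145, over all alternatives. In DU145, where no keratin passed, signs were unsure: with median-of-ratios scaling KRT7 was 0.067 and KRT18 0.0011, and without RN7SL1 and RN7SL2 KRT7 was 0.0073. With 1 library left out KRT7 ranged from -0.086 to 0.067 and KRT19 from -0.075 to 0.20. In PC3 KRT19 passed at 0.37 with a filter of 5 TPM and with only 2 groups fitted, at 0.43 with median-of-ratios scaling and at 0.38 without RN7SL1 and RN7SL2, and ranged from 0.31 to 0.43 with 1 library left out. KRT80 in PC3 ranged from 0.53 to 0.70 in the same way, and its difference between lines, 0.50, passed at a filter of 5 TPM. KRT8 in TRIB1 PC3 against TRIB1 DU145 was 0.29 with median-of-ratios scaling. The cause of these shifts was not tested. With all keratins, an alternative chosen after seeing the data, the type II to type I ratio averaged 2.47 in DU145 TRIB1, 2.51 in DU145 control, 3.18 in PC3 TRIB1 and 3.06 in PC3 control libraries. The members' share of all TPM in PC3 TRIB1 libraries was 0.409% without RN7SL1 and RN7SL2, against 0.400% with them.

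Replicate numbers do not pair the libraries: deviations of same-numbered libraries correlated between -0.04 and 0.01. With the replicate block the genes passing were 223 in DU145 and 3386 in PC3, against 707 and 4415 without it, and the members' calls did not change.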
